A study of Mus musculus with 11 samples.

Results

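The fibril-associated collagens with interrupted triple helices (FACIT collagens) were examined in the distal tibia of mice with and without BM adipocyte depletion. Members were chosen by gene name, with earlier results of these data known, and the rule used no measured value: the 3 chains of type IX collagen (Col9a1, Col9a2 and Col9a3), type XII (Col12a1), type XIV (Col14a1), type XVI (Col16a1) and type XXII collagen (Col22a1). All 7 members were among the 22600 genes of the deposited count table, and all 7 passed the filter on low counts. RNA of the powdered bone was sequenced from 4 Control mice, labelled BMAd-WT for genotype, and from 7 BMAd-DTA mice. Each mouse gave 1 library. Every mouse was labelled as C57BL6/SJL, 24 weeks old and fed ad libitum. According to the study's methods, mice of both groups carry Osterix-FLPo together with FAC, an Adipoq-linked Cre that works only once FLPo has turned it into the sense orientation. Cre is therefore made mainly in bone marrow (BM) adipocytes, where both drivers are active. BMAd-DTA mice also carry ROSA-DTA, in which Cre removes a LoxP-flanked STOP so that diphtheria toxin A kills the cell. Some BM adipocytes remain in this model, and the bone was powdered whole, so marrow, cortical bone and any attached soft tissue entered the same RNA. The labels give neither sex nor batch, and the study's figure caption that covers the RNA sequencing describes male mice.

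FACIT collagens do not form fibrils of their own. They sit on the surface of fibrils built by type I or type II collagen, and their large noncollagenous domains reach out to other matrix proteins and to cells. Type IX collagen decorates the type II fibrils of cartilage. Types XII and XIV lie along type I fibrils in periosteum, tendon and other dense connective tissue, and type XII is also made by osteoblasts. Type XVI is found with fine fibrils in many tissues, and type XXII is best known from tissue junctions such as that between muscle and tendon.

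Library totals ran from 16969529 to 18637663 counts, so differences in depth were small. Osteoblast and osteocyte markers were measured in every library, as the labelled tissue would have. The adipocyte markers, which follow the targeted cells, summed to 3335 to 5267 CPM (counts scaled to library size) in controls and to 1031 to 3737 CPM in BMAd-DTA mice. Of these 12 markers, 12 had a lower mean in BMAd-DTA mice and 1 passed the test. That marker was Retn, which encodes resistin and was named after its value was seen, with a log2 fold change of -1.38 (adjusted p = 0.0205). Control replicate 1 stood apart from the other controls in fibrillar collagen RNA, with a summed level of 2924 CPM against 11700 to 12860 CPM. Skeletal muscle markers varied widely within both groups, from 27.8 to 1464 CPM in controls and from 27.8 to 1141 CPM in BMAd-DTA mice.

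To compare levels between genes, CPM was divided by exon length in kilobases (kb). Col22a1, Col16a1 and Col12a1 led the family in control bone, at 5.83 ± 2.30, 4.35 ± 0.44 and 3.36 ± 0.95 CPM per kb (SD, n = 4). Col14a1 followed at 2.18 ± 1.05 CPM per kb. The type IX chains were far lower, at 0.634 ± 0.218 for Col9a2, 0.408 ± 0.158 for Col9a3 and 0.145 ± 0.102 CPM per kb for Col9a1. Neighbours in this order were not always separated: Col22a1 exceeded Col16a1 in 3 of 4 controls, while Col16a1 exceeded Col12a1, and Col12a1 exceeded Col14a1, in 4 of 4. The 3 type IX chains kept the order Col9a2, Col9a3, Col9a1 in every mouse of both groups.

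In BMAd-DTA mice Col12a1 stood above Col16a1. Per-length levels were 12.2 ± 3.57 for Col22a1, 8.33 ± 3.09 for Col12a1, 5.62 ± 0.77 for Col16a1 and 2.24 ± 0.44 CPM per kb for Col14a1 (SD, n = 7). Col12a1 exceeded Col16a1 in 5 of 7 BMAd-DTA mice and in none of the 4 controls. Col22a1 exceeded Col12a1 in 6 of 7. As a share of the per-length sum over the 7 members, Col12a1 made up 18.7% to 22.3% in controls and 20.3% to 43.6% in BMAd-DTA mice. Over the same mice Col14a1 made up 8.66% to 17.8% and 5.78% to 9.03%.

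**Figure D1:**
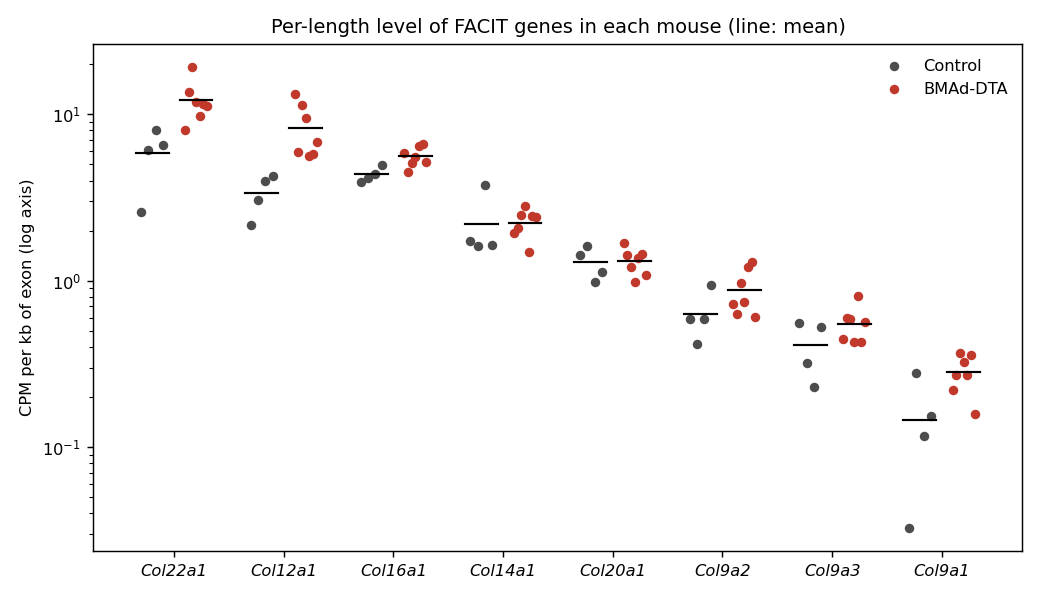
Level of each FACIT gene in each mouse, in CPM per kb of exon on a log axis, for Control (grey, n = 4) and BMAd-DTA mice (red, n = 7), with the mean as a line. Col22a1, Col12a1 and Col16a1 sit highest and the 3 type IX chains lowest, and Col12a1 passes above Col16a1 in the BMAd-DTA mean (8.33 against 5.62 CPM per kb).

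Compared with control, all 7 members had a higher fitted level in BMAd-DTA mice, where 50.4% of all 16496 tested genes had a log2 fold change above 0. The median log2 fold change was 0.47 over the members and 0.0018 over all tested genes. In edgeR's quasi-likelihood test 0 of the 7 were under an adjusted p of 0.05, as were 0.0788% of all tested genes in either direction and 0.0727% in the upward one. At an unadjusted p under 0.05, 4 members were higher (Col12a1, Col22a1, Col16a1 and Col9a1), against 7.89% of all tested genes in that direction. DESeq2 on the same counts placed 3 members, Col12a1, Col22a1 and Col16a1, under an adjusted p of 0.05, against 5.42% of its tested genes in either direction and 2.78% in that direction, and limma-voom placed 0 there. The groups did not overlap for 1 member, Col12a1, against 2.81% of all tested genes in either direction and 1.78% with every BMAd-DTA mouse above every control. In bulk bone, more cells of a type and more RNA per cell cannot be told apart, and this holds for each value below.

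**Figure D2:**
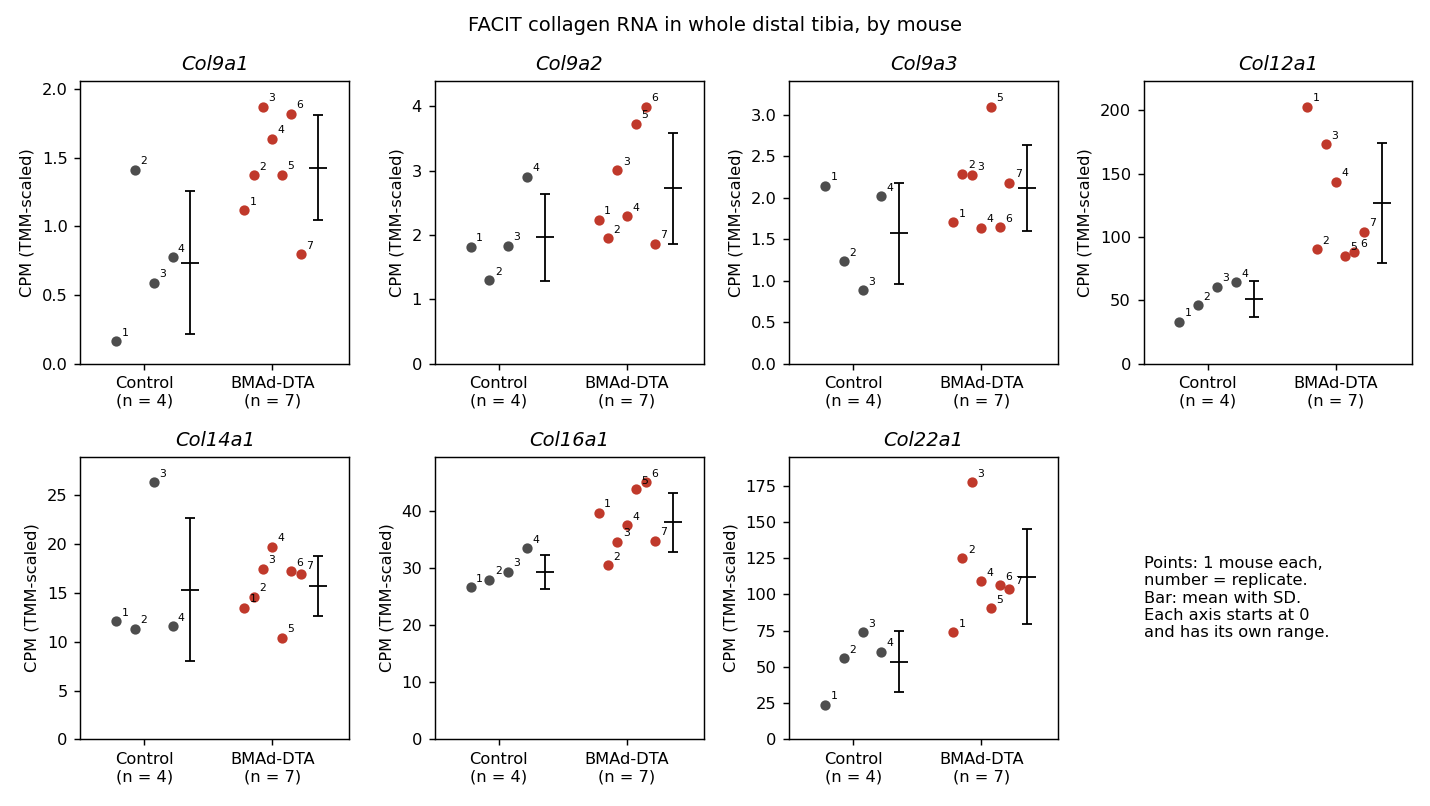
CPM of each FACIT collagen gene by mouse, on linear axes that start at 0, for Control (grey, n = 4) and BMAd-DTA mice (red, n = 7), with the replicate number beside each point and the mean and SD as a bar. The groups are separate for Col12a1 (33.1 to 64.6 against 85.1 to 202.9 CPM), nearly separate for Col22a1 and Col16a1, and mixed for the others.

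Col12a1 (chr9:79598991-79718831, minus strand, GRCm38) encodes the single chain of type XII collagen. Its level in controls was 33.1, 46.3, 60.7 and 64.6 CPM. In BMAd-DTA mice it was 85.1 CPM at the lowest, 104.3 at the median and 202.9 at the highest. Each BMAd-DTA mouse therefore lay above every control, and BMAd-DTA replicates 1, 3 and 4 stood highest within their group. Mean levels were 51.2 ± 14.4 CPM (SD, n = 4) and 126.9 ± 47.1 CPM (SD, n = 7), a 2.48-fold difference. The log2 fold change was 1.31 ± 0.27 (SE), with a 95% interval of 0.72 to 1.90 and an adjusted p of 0.0675. DESeq2 gave an adjusted p of 0.00264. Without Control replicate 3 edgeR's adjusted p was 0.0489, past the threshold, and leaving out any other mouse gave values up to 0.231. Over all tested genes, the fit without Control replicate 3 called 178 higher and 116 lower, against 12 and 1 with all mice.

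Col22a1 (chr15:71795795-72034227, minus strand) encodes type XXII collagen. Controls measured 23.9, 56.1, 60.4 and 74.0 CPM. BMAd-DTA mice ran from 73.8 CPM through a median of 106.3 to 177.2 CPM. All but BMAd-DTA replicate 1, the lowest of its group, lay above every control, and Control replicate 1 lay far below the other controls. The means of 53.6 ± 21.2 CPM (SD, n = 4) and 112.2 ± 32.8 CPM (SD, n = 7) differed 2.09-fold. The log2 fold change was 1.07 ± 0.28 (SE), with a 95% interval of 0.47 to 1.66, an adjusted p of 0.0950 in edgeR and 0.0227 in DESeq2. It was 0.82 without Control replicate 1. Because type XXII collagen marks the muscle-tendon junction, muscle and tendon markers were read beside it. None of the 15 skeletal muscle markers had a higher mean in BMAd-DTA mice, their median log2 fold change was -0.89, and 0 of them passed the test (0 also in DESeq2 and 0 at an unadjusted p under 0.05). With the muscle score as a covariate, the log2 fold change of Col22a1 was 0.98 (adjusted p = 0.176). Of 6 tendon markers, 5 had a higher mean and 0 passed the test, in edgeR or in DESeq2, while 2 had an unadjusted p under 0.05. The summed tendon level was 120.4 to 164.3 CPM in controls and 123.4 to 260.7 CPM in BMAd-DTA mice. Its largest parts were Fmod and Thbs4, named after their values were seen. Their means were 103.9 and 36.6 CPM in controls and 128.2 and 48.9 CPM in BMAd-DTA mice. Tnmd, with the highest log2 fold change of the list (0.90), was at 1.14 to 2.04 CPM and 0.917 to 5.49 CPM. Kera had the lowest log2 fold change, -0.38. The part of tendon tissue in the Col22a1 difference was not tested.

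Col16a1 (chr4:130047840-130099283, plus strand) encodes type XVI collagen and showed the smallest spread between mice, relative to its mean, of the 7 members. Control levels were 26.6, 27.9, 29.4 and 33.5 CPM. Among BMAd-DTA mice the lowest value was 30.5, the median 37.5 and the highest 45.0 CPM. All but BMAd-DTA replicate 2 exceeded every control. The difference was 1.29-fold, from 29.4 ± 2.98 CPM (SD, n = 4) to 38.0 ± 5.21 CPM (SD, n = 7). The log2 fold change of 0.37 ± 0.11 (SE) had a 95% interval of 0.13 to 0.61, an adjusted p of 0.120 in edgeR and 0.0348 in DESeq2. Its narrow interval lay below the estimates for Col12a1 and Col22a1, although differences between members were not tested.

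Col14a1 (chr15:55307750-55520803, plus strand) encodes type XIV collagen, the closest relative of type XII. It did not share the pattern of Col12a1. Controls measured 11.3, 11.6, 12.1 and 26.3 CPM, the last in Control replicate 3. BMAd-DTA mice ran from 10.4 CPM through a median of 16.9 to 19.7 CPM. The groups overlapped throughout, and no BMAd-DTA mouse exceeded Control replicate 3. Mean levels were 15.3 ± 7.33 CPM (SD, n = 4) and 15.7 ± 3.09 CPM (SD, n = 7), with a log2 fold change of 0.04 ± 0.24 (SE), a 95% interval of -0.47 to 0.55 and an adjusted p of 0.962. Without Control replicate 3 the log2 fold change was 0.43 (adjusted p = 0.177), and without each other control in turn it was between -0.08 and -0.06. Control replicate 3 also had the highest skeletal muscle sum of all mice, 1464 CPM. Among controls it had the highest sums of fibroblast and periosteum (679.5 CPM), osteoblast and osteocyte (2403 CPM) and chondrocyte markers (5045 CPM). With the muscle score as a covariate, the log2 fold change of Col14a1 in edgeR was 0.16 (adjusted p = 0.796). The part of these tissues in the Col14a1 level of Control replicate 3 was not tested.

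The 3 type IX chains form a heterotrimer that is covalently bound to type II fibrils in cartilage. Their counts were low, between 3 and 68 read pairs per mouse. Col9a1 (chr1:24177610-24252684, plus strand) measured 0.165, 0.591, 0.778 and 1.41 CPM in controls. In BMAd-DTA mice the lowest, median and highest levels were 0.799, 1.38 and 1.87 CPM. Here 3 of 7 BMAd-DTA mice exceeded every control, and the lowest control value was Control replicate 1, where 3 counts allow 0.0341 to 0.483 CPM (exact Poisson 95% interval, counting error only). The log2 fold change was 0.95 ± 0.43 (SE), with a 95% interval of 0.03 to 1.87 and in edgeR an adjusted p of 0.284 (0.0430 before adjustment). It was 0.62 without Control replicate 1 and 1.47 without Control replicate 2, a range of more than 1.5 times.

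Col9a2 (chr4:121039385-121055322, plus strand) had a mean of 1.96 ± 0.68 CPM (SD, n = 4) in controls and 2.73 ± 0.86 CPM (SD, n = 7) in BMAd-DTA mice. Levels ran from 1.30 to 2.90 CPM and from 1.87 to 3.99 CPM. Its log2 fold change of 0.47 ± 0.28 (SE) had a 95% interval of -0.15 to 1.08 and an adjusted p of 0.445. Col9a3 (chr2:180597790-180622189, plus strand) measured 1.57 ± 0.61 CPM (SD, n = 4) and 2.12 ± 0.52 CPM (SD, n = 7). The ranges were 0.886 to 2.15 CPM and 1.64 to 3.10 CPM, with a log2 fold change of 0.42 ± 0.28 (SE), an interval of -0.18 to 1.03 and an adjusted p of 0.486. For both chains the intervals include 0 as well as 1. Col9a3 shares 234 exonic bases with Tcfl5 on the opposite strand. The counts follow the read strand, and opposite-strand counts over Col9a3 were 1 to 14 per mouse.

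Promoter sequences were available for 3 of the 7 members, in RefSeq on GRCm38.p6. Col9a1 has 2 annotated starts on the plus strand, which give type IX chains with a long or a short amino-terminal end, and gene counts cannot separate them. The 250 bases before each start are shown as the promoter sequences of these transcripts. The upstream window matches the annotated start of the gene. In the second, 16 bases lie within GENCODE exons.

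Col9a1 upstream start, chr1:24177360-24177609: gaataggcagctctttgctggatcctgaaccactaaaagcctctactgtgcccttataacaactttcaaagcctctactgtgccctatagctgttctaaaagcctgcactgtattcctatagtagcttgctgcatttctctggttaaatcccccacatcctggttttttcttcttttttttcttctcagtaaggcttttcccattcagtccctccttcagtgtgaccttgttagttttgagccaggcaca
Col9a1 second start, chr1:24194953-24195202: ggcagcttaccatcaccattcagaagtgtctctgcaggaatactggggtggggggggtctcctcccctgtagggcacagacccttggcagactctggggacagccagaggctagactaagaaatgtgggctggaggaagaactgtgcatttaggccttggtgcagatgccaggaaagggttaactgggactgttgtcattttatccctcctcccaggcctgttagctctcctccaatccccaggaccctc

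The windows differ in base composition, with 43.6% and 56.0% G or C against a median of 52.4% over 32851 promoter windows of this length. Each was searched on both strands for the TATA box TATAAA, the GC box GGGCGG and the SOX motif ACAAAG with its variant ACAATG, bound in cartilage by SOX family factors. Neither window held any of the 4 motifs, so no base is in capitals. Over all windows, 12.4% held the TATA box, 32.7% the GC box, 16.5% ACAAAG and 10.7% ACAATG. The Col9a2 window, not shown, has 60.4% G or C and 2 GC boxes, which begin 26 and 14 bases before the start. In it, 181 bases lie within GENCODE exons. The Col16a1 window, from the member with the steadiest level, is shown beside those of Col9a1, with 75.6% G or C. It holds a GC box on the plus strand, in capitals, which begins 159 bases before the start.

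Col16a1, chr4:130047590-130047839: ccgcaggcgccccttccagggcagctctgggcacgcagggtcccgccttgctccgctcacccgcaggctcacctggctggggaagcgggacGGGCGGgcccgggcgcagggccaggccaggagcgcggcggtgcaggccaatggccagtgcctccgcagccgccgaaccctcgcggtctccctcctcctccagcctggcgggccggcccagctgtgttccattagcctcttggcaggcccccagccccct

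Besides the members, Col20a1 and Col19a1 were the FACIT genes in the table used here. Col20a1 (type XX collagen) was expressed above the type IX chains, at 1.29 ± 0.29 CPM per kb in controls and 1.31 ± 0.24 CPM per kb in BMAd-DTA mice. Its log2 fold change was 0.03 ± 0.18 (SE), with a 95% interval of -0.36 to 0.41 and an adjusted p of 0.963. Col19a1 (type XIX collagen) was too low to test, with 0 to 7 counts per mouse. In Control replicate 1 it had 0 counts, which allows a level of up to 0.165 CPM (3 counts).

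The fibrillar collagens, whose fibrils FACIT collagens coat, were higher in mean level throughout. All 11 tested chains had a positive log2 fold change, with a median of 1.01. None passed an adjusted p of 0.05 in edgeR, and 9 had an unadjusted p under 0.05, against 7.89% of all tested genes in that direction. DESeq2 called 5, against 2.78% of its tested genes in that direction. The groups did not overlap for 6, against 1.78% of all tested genes with every BMAd-DTA mouse above every control. Col1a1, the major chain of type I collagen of bone, had the highest log2 fold change of the list, 1.35 ± 0.39 (SE, adjusted p = 0.115), and Col5a3, a minor type V chain, the lowest, 0.16 ± 0.22 (SE, adjusted p = 0.770). Col2a1, the chain of type II collagen, ran from 104.5 to 271.4 CPM in controls and from 392.7 to 580.1 CPM in BMAd-DTA mice, without overlap. Its log2 fold change was 1.11 ± 0.22 (SE, adjusted p = 0.0675).

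Among 14 tested proteins known to bind FACIT collagens or the same fibrils, 11 had a higher and 3 a lower mean in BMAd-DTA mice. Over the list the median log2 fold change was 0.22. Both members that passed the test encode collagen-binding integrin chains. Itga11, the α11 chain found on osteoblastic and fibroblastic cells, rose from 18.4 ± 1.75 CPM (SD, n = 4) to 28.9 ± 2.73 CPM (SD, n = 7), with a log2 fold change of 0.65 ± 0.09 (SE, adjusted p = 0.0326). Itga10, the α10 chain known from cartilage, rose from 20.4 ± 2.17 CPM to 35.8 ± 6.35 CPM, with a log2 fold change of 0.81 ± 0.13 (SE, adjusted p = 0.0384). Neither gene's groups overlapped. In all, 4 of the 14 genes had groups that did not overlap, against 1.78% of all tested genes with every BMAd-DTA mouse above every control. No listed gene passed once the muscle or the chondrocyte score was added as a covariate. None passed without Control replicates 1 or 2 or BMAd-DTA replicates 1 or 6 either. Of all 16496 tested genes, those fits called 0, apart from 2 higher and 1 lower with the muscle score. The fit on all mice called 12 higher and 1 lower. Without Control replicate 3, 4 listed genes passed, and over all tested genes 178 were called higher and 116 lower. Postn, encoding periostin of the periosteum, had the highest log2 fold change of this list, 1.12 ± 0.25 (SE, adjusted p = 0.0720). At the other end Itga1, the α1 integrin chain, had -0.07 ± 0.09 (SE, adjusted p = 0.761).

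**Figure D3:**
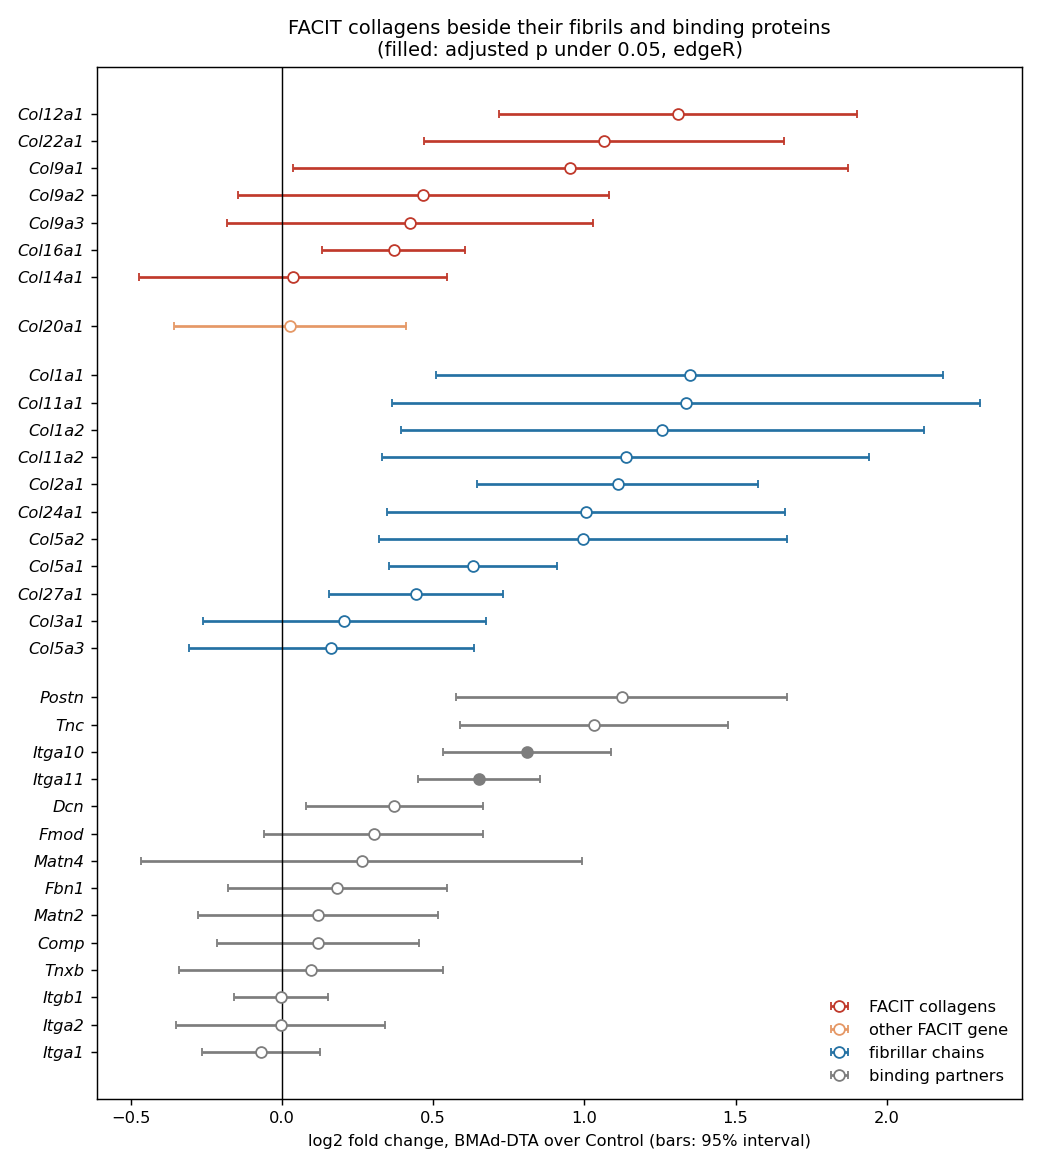
Log2 fold change of BMAd-DTA over Control mice with its 95% interval for the FACIT collagens (red), Col20a1 (orange), fibrillar chains (blue) and binding partners (grey), with filled points for an adjusted p under 0.05 in edgeR. Col12a1, Col22a1, Col16a1 and Col9a1 have intervals above 0, that of Col9a1 by a small margin, Col14a1 and Col20a1 lie near 0, and only Itga10 and Itga11 are filled.

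To determine whether each FACIT gene kept pace with the fibril it decorates, the log2 ratio of its counts to those of a fibrillar chain was taken in each mouse. Library size cancels in this ratio. Type IX chains were set against Col2a1 and the others against Col1a1, and the 7 ratios were tested by exact permutation over 330 splits of the mice (two-sided, smallest possible p 0.00303, adjusted over the 7 ratios).

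The ratio of Col14a1 to Col1a1 was lower in BMAd-DTA mice. Col14a1 itself had a log2 fold change of 0.04, and Col1a1 had 1.35, without overlap between the groups. The difference in ratio therefore lies in the Col1a1 level and not in a lower Col14a1 level. Any gene at a like level in both groups would have a lower ratio to Col1a1, and such genes were not tested. The log2 ratio was -6.69, -8.95, -7.89 and -8.98 in Control replicates 1 to 4, and -10.11 at the lowest, -9.55 at the median and -9.08 at the highest in BMAd-DTA mice. Every BMAd-DTA mouse lay below every control. The difference of means was -1.41 (exact permutation p = 0.00303, adjusted p = 0.0212). Control replicate 1, with the lowest Col1a1 level of 1245 CPM against 5588 to 6226 CPM in the other controls, had the highest ratio, and without it the difference was -0.93. Against Col1a2 in place of Col1a1 the difference was -1.31, with an adjusted p of 0.0636.

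Ratios of the other 6 members did not pass the test. Relative to Col1a1, Col12a1 differed by -0.24 (exact permutation p = 0.624), Col22a1 by -0.39 (p = 0.0545) and Col16a1 by -1.16 (p = 0.0333, adjusted p = 0.117). For Col16a1 and Col22a1, 5 of 7 BMAd-DTA mice lay below every control. The Col12a1 ratio was highest in Control replicate 1 and BMAd-DTA replicate 1, at -5.24 and -5.23, and its difference was 0.12 without Control replicate 1. Relative to Col2a1, Col9a1 differed by 0.08 (exact permutation p = 0.836), Col9a2 by -0.71 (p = 0.115) and Col9a3 by -0.70 (p = 0.167). Per exon length, the median level of Col2a1 was 37.0-fold that of Col9a2 in controls and 57.3-fold in BMAd-DTA mice, 70.0-fold and 97.4-fold that of Col9a3, and 201.8-fold and 170.2-fold that of Col9a1.

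**Figure D4:**
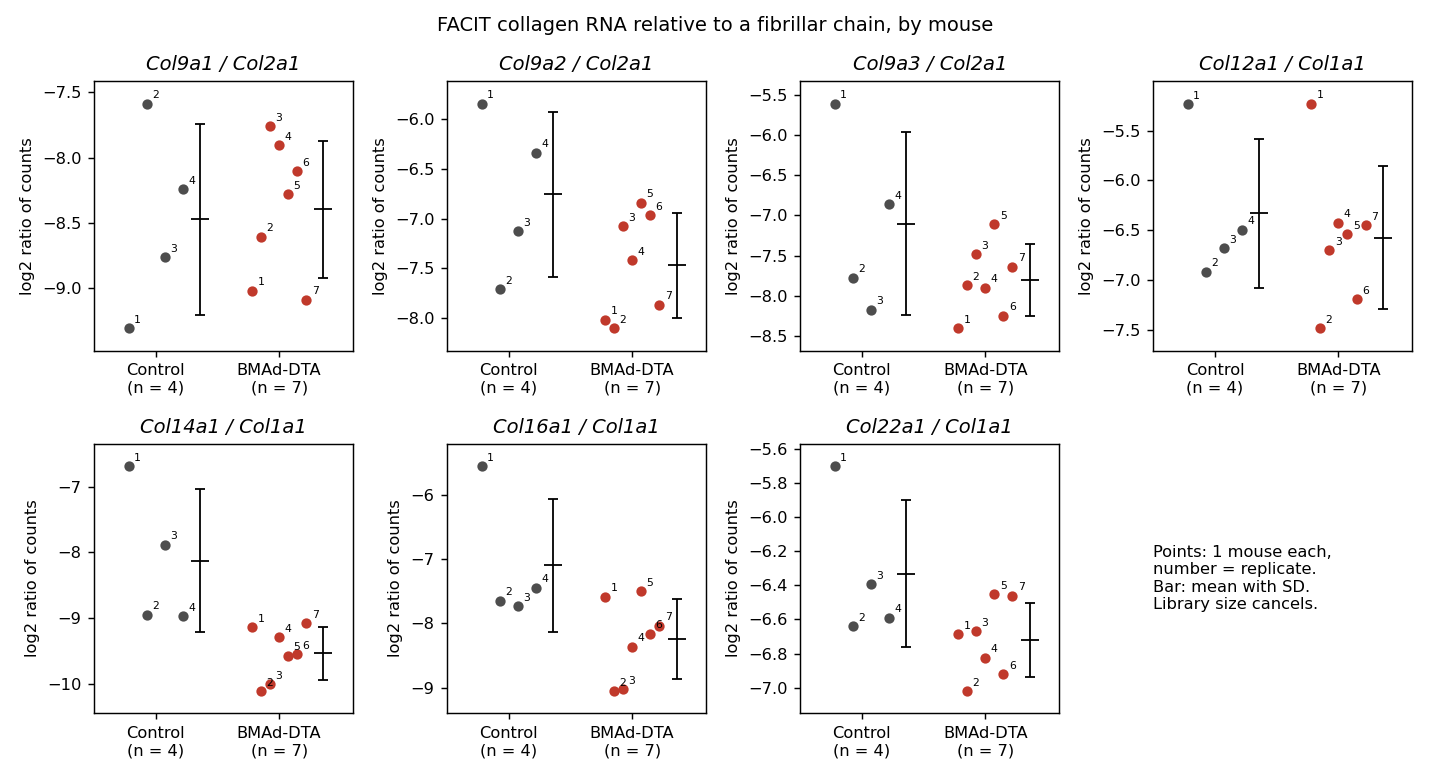
Log2 ratio of the counts of each FACIT collagen gene to those of Col2a1 (type IX chains) or Col1a1 (the others), by mouse, for Control (grey, n = 4) and BMAd-DTA mice (red, n = 7), with the replicate number beside each point and the mean and SD as a bar. Axes have their own ranges. The groups are separate for Col14a1 alone, and Control replicate 1 has the highest ratio in the panels of Col9a2, Col9a3, Col14a1, Col16a1 and Col22a1.

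Members varied together only in part. Of 21 pairs of members, 18 had a positive correlation of log2 CPM over the 11 mice. An adjusted Pearson p under 0.05 was reached by 3 pairs, and 0 pairs reached it for both Pearson's r and Spearman's rho. Col9a2 and Col16a1 had r = 0.817 (permutation adjusted p = 0.0379) and rho = 0.818 (permutation adjusted p = 0.0750) over the 11 mice. Their r was 0.695 without the 2 mice farthest from the median, and 0.778 within the 7 BMAd-DTA mice (exact permutation adjusted p = 0.867). Col9a1 and Col22a1 had r = 0.829 (permutation adjusted p = 0.0379) and rho = 0.655 (permutation adjusted p = 0.230), and r = 0.531 without Control replicates 1 and 3. Within the 7 BMAd-DTA mice their r was 0.517 (exact permutation adjusted p = 0.8965). Col12a1 and Col22a1 had r = 0.762 (permutation adjusted p = 0.0379) and rho = 0.682 (permutation adjusted p = 0.230) over the 11 mice, and r = 0.903 without Control replicate 1 and BMAd-DTA replicate 1. For all 3 pairs, values over mice of both groups include the difference between the groups, which do not overlap in Col12a1. Within the 7 BMAd-DTA mice Col12a1 and Col22a1 had r = 0.0259 and rho = 0.0714 (exact permutation p = 0.948 for r). BMAd-DTA replicate 1 had the highest Col12a1 and the lowest Col22a1 and Col1a1 levels of its group. The 4 controls are too few for a correlation of their own.

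**Figure D5:**
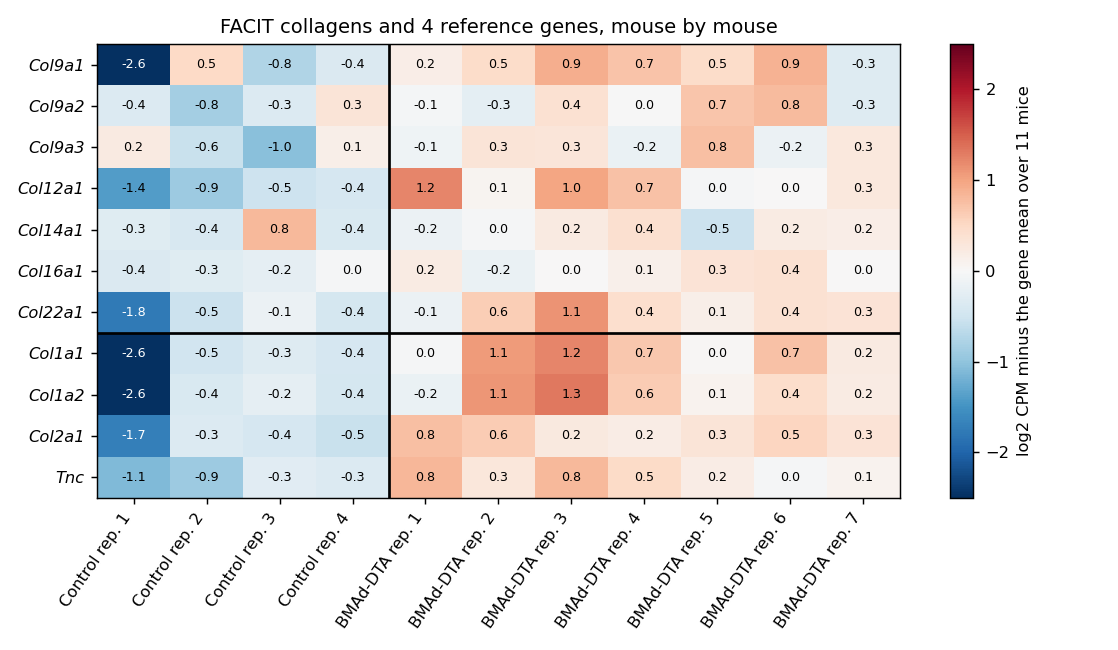
Log2 CPM of the 7 FACIT collagens and of Col1a1, Col1a2, Col2a1 and Tnc in each of the 11 mice, minus the mean of the gene over all mice, from blue (lower) to red (higher). Control replicate 1 is darkest blue for Col1a1, Col1a2, Col22a1 and Col9a1, and BMAd-DTA replicate 1 is highest for Col12a1 but not for Col22a1.

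Genes most like each member were found by Pearson's r of log2 CPM over the 11 mice after subtracting group means, among 11928 tested genes with a mean of at least 5 CPM. The values describe these mice and carry no test. Col12a1 was closest to Tns3 (r = 0.944), Map4k3 (r = 0.939) and Tnc (r = 0.924). Tnc encodes tenascin-C, a matrix protein of periosteum and healing tissue, and its own log2 fold change was 1.03 ± 0.21 (SE, adjusted p = 0.0675). Col22a1 was closest to Col1a2 (r = 0.969), Cpz (r = 0.968) and Sparc (r = 0.964), and Col1a2 and Sparc encode the second type I chain and osteonectin of bone matrix. Col14a1 was closest to Arhgef11 (r = 0.941), Rab3a (r = 0.922) and Slc2a6 (r = 0.902), and Col16a1 to Nr2c1 (r = 0.918), Adgrl4 (r = 0.912) and Timm50 (r = 0.884). For the low type IX chains the closest genes were Chmp7 (r = 0.968), Ighv1-39 (r = 0.961) and Vsig10l (r = 0.920) for Col9a1, Fars2 (r = 0.912), Mmut (r = 0.907) and Dnajb11 (r = 0.904) for Col9a2, and Tcp1 (r = 0.960), Npm1 (r = 0.952) and Nup133 (r = 0.951) for Col9a3.

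Marker lists of the tissues that make FACIT collagens were read beside these values. All 12 osteoblast and osteocyte markers had a higher mean in BMAd-DTA mice. Their median log2 fold change was 0.78, with summed levels of 1252 to 2403 CPM in controls and 2146 to 4069 CPM in BMAd-DTA mice. Among them 1 passed the test, Alpl, which encodes alkaline phosphatase and was named after its value was seen (log2 fold change 1.16, adjusted p = 0.0326). At an unadjusted p under 0.05, 11 were higher, against 7.89% of all tested genes in that direction. DESeq2 called 8 of them higher, against 2.78% of its tested genes. The groups did not overlap for 3, against 1.78% of all tested genes with every BMAd-DTA mouse above every control. Of 11 fibroblast and periosteum markers, 10 were higher in mean and 0 passed in edgeR, with 4 at an unadjusted p under 0.05 and 2 in DESeq2, and their summed levels were 492.7 to 679.5 CPM and 655.3 to 843.9 CPM. Of 17 tested chondrocyte markers, 14 were higher and 3 lower, 0 passed in edgeR, and the median log2 fold change was 0.18. At an unadjusted p under 0.05, 3 were higher and 1 lower, and in DESeq2 1 was higher and 1 lower. Summed chondrocyte levels were 2842 to 5045 CPM and 4630 to 6292 CPM. The largest part of that sum was Prg4, named after its value was seen. Its mean was 2781 CPM in controls and 2928 CPM in BMAd-DTA mice, with a log2 fold change of 0.07. The cartilage matrilins Matn1 and Matn3 were at or near 0, at most 0.412 and 0.236 CPM in controls and 0.401 and 0.492 CPM in BMAd-DTA mice. With the chondrocyte score as a covariate, the log2 fold change was 1.32 for Col12a1, 0.76 for Col22a1, 0.26 for Col16a1 and -0.12 for Col14a1. Among the type IX chains it was 1.01 for Col9a1, 0.03 for Col9a2 and 0.24 for Col9a3. None passed an adjusted p of 0.05, and in that fit 0 of all 16496 tested genes passed. The score is the mean log2 CPM of the tested markers, with Col2a1, Col11a1 and Col11a2 among them. It ran from 4.41 to 5.14 in controls and from 4.75 to 5.25 in BMAd-DTA mice, so it carries part of the difference between the groups. The part of these tissues in the differences of the FACIT genes was not tested further.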

How the data were processed

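Total RNA of whole distal tibiae from 4 Control and 7 BMAd-DTA mice was used for strand-specific mRNA sequencing (paired-end, 100 bp). The authors checked reads with FastQC v0.11.9, ran STAR with its defaults against mm10 and deposited whole-number counts of read pairs per gene, not normalized, both per library and merged into 1 table. The gene annotation release is not given in the sources used here. Pairs that were unmapped, multimapping, outside genes or ambiguous were not used. They held 9.10% to 15.1%, 6.68% to 9.07%, 6.58% to 8.44% and 1.49% to 1.70% of all pairs in each library.

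Counts of the merged table (22600 genes) were fitted with edgeR 4.0.16 under R 4.3.3. Low counts were filtered with filterByExpr by group, libraries scaled by TMM, and genotype, the only term, tested two-sided with glmQLFit and glmQLFTest. P values of the 16496 genes kept were adjusted by Benjamini-Hochberg, with a threshold of 0.05. CPM used TMM-scaled library sizes. The SE was the absolute log2 fold change over the square root of F. Exon lengths and positions came from GENCODE M21 (GRCm38, which is mm10), and 99.9% of identifiers matched. Ratios and correlations used exact tests or 100000 permutations in SciPy 1.17.1, with a prior count of 2 for log2 CPM. The common biological coefficient of variation was 0.202. Among the members, counts were lowest for the type IX chains. The steps were tested on simulated data.

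Alternatives were DESeq2 1.42.0, limma-voom (limma 3.58.1), other scalings and filters, both kinds of per-library counts, a muscle or chondrocyte score as a covariate, Col1a2 and Col11a1 as ratio partners, and each mouse left out in turn. Named are the 7 members, the other FACIT genes, called or extreme members of the fibrillar and binding lists, Col1a1 and Col2a1, and the 3 genes most like each member. Erythroid, neutrophil and endothelial markers had median log2 fold changes of -0.08, -0.05 and -0.09, with 0 called in edgeR, 0 at an unadjusted p under 0.05 apart from 2 erythroid genes, and 1 erythroid gene called in DESeq2. Members and lists were chosen with earlier results of these data known. No 2 libraries of a group agreed within sampling noise (chi-square per gene of at least 17.8). Each library is a separate mouse.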

Additional observations from a re-analysis of the deposited data

Results flagged for a closer look

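In 30 groups of values for the FACIT collagens, 2 held a mouse that stood far from the rest by Dixon's criterion, and chance alone flags about 1 group in 20. Col14a1 measured 26.29 CPM in Control replicate 3, while the other controls measured 11.3 to 12.1 CPM, so that the gap made up 0.949 of the range of the group. The log2 ratio of Col16a1 to Col1a1 was -5.548 in Control replicate 1, against -7.73 to -7.44 in the other controls, a gap of 0.869 of the range. Without Control replicate 3 the log2 fold change of Col14a1 was 0.43, against 0.04 with all mice. The high Col16a1 ratio accompanies the lowest Col1a1 level of all mice, 1245 CPM.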

How the results depend on the processing

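Of 329 alternative values, 283 kept their direction and their side of the threshold or moved little. With DESeq2, 3 FACIT collagens (Col12a1, Col16a1 and Col22a1), 5 fibrillar chains and 4 binding proteins passed an adjusted p of 0.05, where edgeR gave 0, 0 and 2. In that fit the log2 fold changes of these members were 1.31, 0.37 and 1.06. The count of binding proteins was 0 with the muscle and 0 with the chondrocyte score. Over all tested genes the muscle fit called 2 higher and 1 lower, and the chondrocyte fit called 0. Leaving out each mouse in turn gave 0 to 1 FACIT collagens, 0 to 3 fibrillar chains and 0 to 4 binding proteins past the threshold, with the highest of each without Control replicate 3. Over all 16496 tested genes, the fit without Control replicate 3 called 178 higher and 116 lower, against 12 and 1 with all mice. The fits without Control replicates 1 or 2 or BMAd-DTA replicates 1 or 6 called 0. Without overlap were 1 to 3 FACIT collagens with a mouse left out, and the share over all genes was not taken for those fits. Log2 fold changes ran from 1.15 to 1.44 for Col12a1, 0.82 to 1.26 for Col22a1, 0.33 to 0.44 for Col16a1, 0.62 to 1.47 for Col9a1, 0.31 to 0.72 for Col9a2 and 0.24 to 0.61 for Col9a3.

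Col14a1 turned to -0.12 with the chondrocyte score, to -0.06, -0.083 and -0.076 without Control replicates 1, 2 and 4 and to -0.03 without BMAd-DTA replicate 4, within a range of -0.083 to 0.43 over the mice left out. The Col9a1 ratio turned to -0.32 against Col11a1, and to -0.20, -0.02, -0.03 and -0.0023 without Control replicates 1 and 3 and BMAd-DTA replicates 3 and 4 (range -0.20 to 0.38). The Col12a1 ratio was 0.12 without Control replicate 1 (range -0.47 to 0.12). Other ranges were -1.03 to -0.41 for Col9a2, -1.06 to -0.20 for Col9a3, -1.37 to -0.64 for Col16a1 and -0.49 to -0.18 for Col22a1. For Col14a1 the ratio was -1.31 against Col1a2 and -1.70 to -0.93 with a mouse left out, and 0 ratios passed against those partners and 0 to 1 with a mouse left out. With 3 controls the smallest exact p is 0.00833. A ratio that alone reaches it has an adjusted p of 0.0583 over the 7 ratios and does not pass. The adjusted p of the Col14a1 ratio was at most 0.0583 with a mouse left out. The cause of these changes was not tested. No paired analysis was possible because the labels give no replicate numbers shared between the groups. Depth limits the type IX chains and Col19a1.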
